A study of Homo sapiens with 2 samples.

Results

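The genes described here are 10 secreted signals of inflammation: the neutrophil-attracting chemokines CXCL1, CXCL2, CXCL3 and CXCL8, the chemokine CCL20, the IL-6 type cytokines IL6 and LIF, the macrophage growth factor CSF1, and the upstream cytokines IL1B and TNF. The genes were listed by name, and every probe set annotated to exactly 1 of them was taken, which gave 17 of the 54613 non-control probe sets on the array. Of these, 12 had a signal above the floor in at least 1 array and 5 did not, and all 10 genes kept at least 1 measured probe set, out of 12931 measured genes. The floor was the median of all non-control signals, 47.9. RNA came from PC-3, an androgen-independent human prostate cancer line. It was hybridised to 2 arrays, 1 from PC-3 cells transfected with an shRNA expression vector against SHISA2 (siSHISA2) and 1 from PC-3 cells given the control vector (siCONTROL). Neither how many cultures or clones went into each RNA nor the time of harvest is given in the sources used here. There is no replicate, so no difference was tested, and precision is limited by having 1 array per group.

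CXC chemokines with a Glu-Leu-Arg motif, which CXCL1, CXCL2, CXCL3 and CXCL8 share, act on the receptors CXCR1 and CXCR2 of neutrophils. CCL20 calls cells that carry CCR6. IL-6 binds IL6R and LIF binds LIFR, and both signal through the common subunit gp130 (gene IL6ST) to JAK kinases and STAT3, which induces the feedback inhibitor SOCS3. Interleukin-1 beta and TNF switch on NF-kB, which drives transcription of most of the other members, and the short-lived messages of many of them carry AU-rich elements. Carcinoma cells can secrete these factors themselves.

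The promoters are shown for the 4 neutrophil chemokines, whose log2 ratios stayed near 0, and for IL6 and CCL20, whose signals were higher in siSHISA2 cells. RefSeq promoter entries (assembly GRCh38.p14) were found for 8 of the 10 members, and the last 150 bases before the transcript start are given 5′ to 3′, in lower case, with matches in capitals. The capitals mark 2 NF-kB type motifs (GGGA, any base, TTTCC, and the shorter GGAATTTCC), the AP-1 type motif TGANTCA and the TATA box TATAAA, searched on both strands. The shorter NF-kB motif lies inside the longer one where that free base is A. The stretches are chr4:73869243-73869392 on the plus strand, chr4:74099196-74099345 on the minus strand, chr4:74038690-74038839 on the minus strand and chr4:73740419-73740568 on the plus strand for the neutrophil chemokines, chr7:22727050-22727199 on the plus strand for IL6 and chr2:227813692-227813841 on the plus strand for CCL20.
CXCL1 promoter: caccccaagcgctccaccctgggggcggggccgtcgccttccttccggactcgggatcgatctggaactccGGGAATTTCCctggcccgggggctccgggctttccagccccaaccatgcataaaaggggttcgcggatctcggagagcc
CXCL2 promoter: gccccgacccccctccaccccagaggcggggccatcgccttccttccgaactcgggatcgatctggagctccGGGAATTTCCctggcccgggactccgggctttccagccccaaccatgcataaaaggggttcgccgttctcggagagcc
CXCL3 promoter: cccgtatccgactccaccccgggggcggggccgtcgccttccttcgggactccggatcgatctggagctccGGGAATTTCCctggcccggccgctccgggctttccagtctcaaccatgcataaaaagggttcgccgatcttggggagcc
CXCL8 promoter: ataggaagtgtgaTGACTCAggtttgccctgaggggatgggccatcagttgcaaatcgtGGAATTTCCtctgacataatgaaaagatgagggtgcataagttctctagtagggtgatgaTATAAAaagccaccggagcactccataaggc
IL6 promoter: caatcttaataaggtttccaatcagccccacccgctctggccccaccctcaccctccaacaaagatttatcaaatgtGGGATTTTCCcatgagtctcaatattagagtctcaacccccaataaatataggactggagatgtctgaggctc
CCL20 promoter: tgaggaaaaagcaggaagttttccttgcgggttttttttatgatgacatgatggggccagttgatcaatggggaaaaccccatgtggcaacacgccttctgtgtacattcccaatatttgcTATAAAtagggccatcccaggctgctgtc

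The 3 promoters of CXCL1, CXCL2 and CXCL3 were close copies, with 86.1% to 88.7% identical columns in pairwise global alignments, whereas the other pairs among the 6 shown had 43.6% to 52.1%. Each of the 3 held GGGAATTTCC, starting at base -79 before the transcript start in CXCL1 and CXCL3 and at base -78 in CXCL2. In CXCL8 the match was the shorter GGAATTTCC at base -91, beside an AP-1 type match at base -137, and in IL6 it was GGGATTTTCC at base -73. Over the 250 bases before the start, the longer motif was found in 4 members and in 0.527% of the 35116 promoters of the table, and the shorter one in 4 members and in 0.413%. CCL20 and TNF held a TATA box match and neither NF-kB motif in these letters, and IL1B held none of the 4 motifs. Only these exact strings were searched, so a site spelled otherwise would be missed. AP-1 type matches were in 6.57% and TATA box matches in 10.7% of all promoters. The 5 promoters with an NF-kB type match thus belonged to 4 genes with log2 ratios between -0.06 and 0.19 and to IL6 with 0.54.

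The neutrophil chemokines differed little between the arrays. CXCL1 read 2506 in siSHISA2 cells and 2611 in siCONTROL cells, a log2 ratio of -0.06. In RNA of whole cultures, such as this, fewer cells making a message and less of it per cell cannot be told apart. CXCL2 read 900 in siSHISA2 cells against 791 in siCONTROL cells on its measured probe set 209774_x_at (log2 ratio 0.19), a kind of probe set that can share probes with related transcripts. CXCL3 read 143.9 in siSHISA2 cells and 146.0 in siCONTROL cells (log2 ratio -0.02). All log2 ratios are siSHISA2 over siCONTROL, after signals under the floor were raised to it. CXCL8, which encodes interleukin-8, read 14729 in siSHISA2 cells and 14168 in siCONTROL cells on probe set 202859_x_at, and 3313 against 3032 on 211506_s_at. Its log2 ratios were 0.06 and 0.13, so both probe sets were 1.04-fold to 1.09-fold higher. Both CXCL8 probe sets are likewise of the kind that can share probes. The median of the 4 genes was 0.02, against 0.01 over all measured genes. A technical SD per probe set, computed from how far the log2 ratios of a gene's 2 brightest probe sets lay apart (their SD over the square root of 2), was 0.286 over all genes with several measured probe sets. It was 0.150 where both signals of both probe sets were above 387.3, the 75th percentile of all signals. That SD holds no variation between cultures or arrays. CXCL1, CXCL3 and CXCL8 each lay within 1 such SD of 0, and CXCL2 at 1.23 times the bright value. The other probe sets of CXCL2 were under the floor in both arrays, at 32.2 in siSHISA2 cells against 24.8 in siCONTROL cells and at 3.4 against 4.6.

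**Figure D1:**
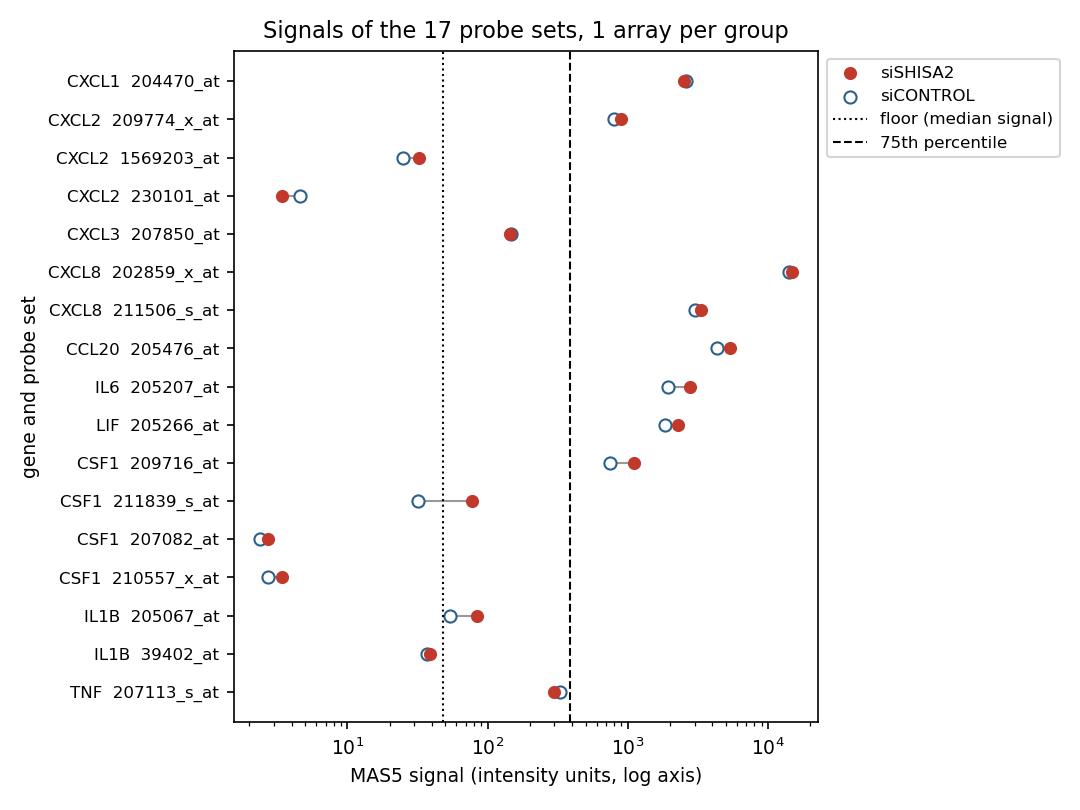
MAS5 signal (log axis) of each of the 17 probe sets, with filled points for the siSHISA2 array and open points for the siCONTROL array, the floor of 47.9 dotted and the 75th percentile of 387.3 dashed. The points of CXCL1, CXCL3 and CXCL8 nearly coincide, while those of CCL20, IL6, LIF and CSF1 lie apart, with the siSHISA2 array higher.

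The other chemokine of the set, CCL20, was higher in siSHISA2 cells. Its signal was 5388 in siSHISA2 cells and 4338 in siCONTROL cells, which is 1.24-fold (log2 ratio 0.31) and 2.08 times the bright technical SD. Of the 7650 genes with both signals above 387.3 (called bright here), 377, or 4.93%, had a higher ratio.

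Both IL-6 type cytokines were also higher. IL6 read 2796 in siSHISA2 cells against 1923 in siCONTROL cells, 1.45-fold (log2 ratio 0.54). This was 3.60 times the bright technical SD, and 78 bright genes, or 1.02%, had a higher ratio. LIF, which keeps stem cells undifferentiated in mouse and acts on many tissues, read 2294.5 in siSHISA2 cells and 1848 in siCONTROL cells, again 1.24-fold (log2 ratio 0.31). A higher ratio than that of LIF was found in 4.98% of bright genes. Each of these cytokines is read by 1 probe set, so neither value could be set against another probe set of the gene.

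CSF1, the growth factor of macrophages and their precursors, was higher on both of its measured probe sets. Probe set 209716_at read 1108 in siSHISA2 cells and 747 in siCONTROL cells, 1.48-fold (log2 ratio 0.57, 3.79 times the bright technical SD), and 61 bright genes, or 0.797%, had a higher ratio. Probe set 211839_s_at read 77.3 in siSHISA2 cells and 31.9, under the floor, in siCONTROL cells, which is at least 1.61-fold. That probe set is of the kind that can share probes. The remaining CSF1 probe sets, 207082_at and 210557_x_at, read between 2.4 and 3.4 in both arrays and gave no ratio.

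IL1B and TNF went different ways at low signals. IL1B read 83.4 in siSHISA2 cells and 54.2 in siCONTROL cells on probe set 205067_at, 1.54-fold (log2 ratio 0.62). This was 2.18 times the technical SD over all genes. Its other probe set, 39402_at, was under the floor in both arrays, at 38.6 in siSHISA2 cells and 37.0 in siCONTROL cells. Among the 5281 dim genes, those with at least 1 signal not above 387.3, 11.2% were at least 1.5-fold higher, so the IL1B difference was of a size common at that brightness. TNF, the tumour necrosis factor, read 298.5 in siSHISA2 cells against 328.2 in siCONTROL cells, with a log2 ratio of -0.14, on a probe set of the kind that can share probes.

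In all, 7 of the 10 members were above 0, against 52.2% of all measured genes, and their median log2 ratio was 0.25, against 0.01. At least 25% higher were 3 members (IL6, CSF1 and IL1B), against 13.1% of all measured genes, and 0 were lower by at least 20%, the same fold downward, against 12.0%. CCL20 and LIF, both 1.24-fold higher, were just short of that fold. At least 1.5-fold higher was 1 member, IL1B, against 5.01% of all measured genes, and 0 were at least 1.5-fold lower, against 3.77%. Of the 7 bright members, 6 were above 0, with a median of 0.31, against 50.2% of bright genes and a median of 0.00, and 2 (IL6 and CSF1) were at least 25% higher, against 4.69% of bright genes. No member was 2-fold apart in either direction, against 0.92% of measured genes higher and 0.565% lower. Because the list is short and was drawn up with earlier results of these arrays known, these shares describe it and are no test.

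**Figure D2:**
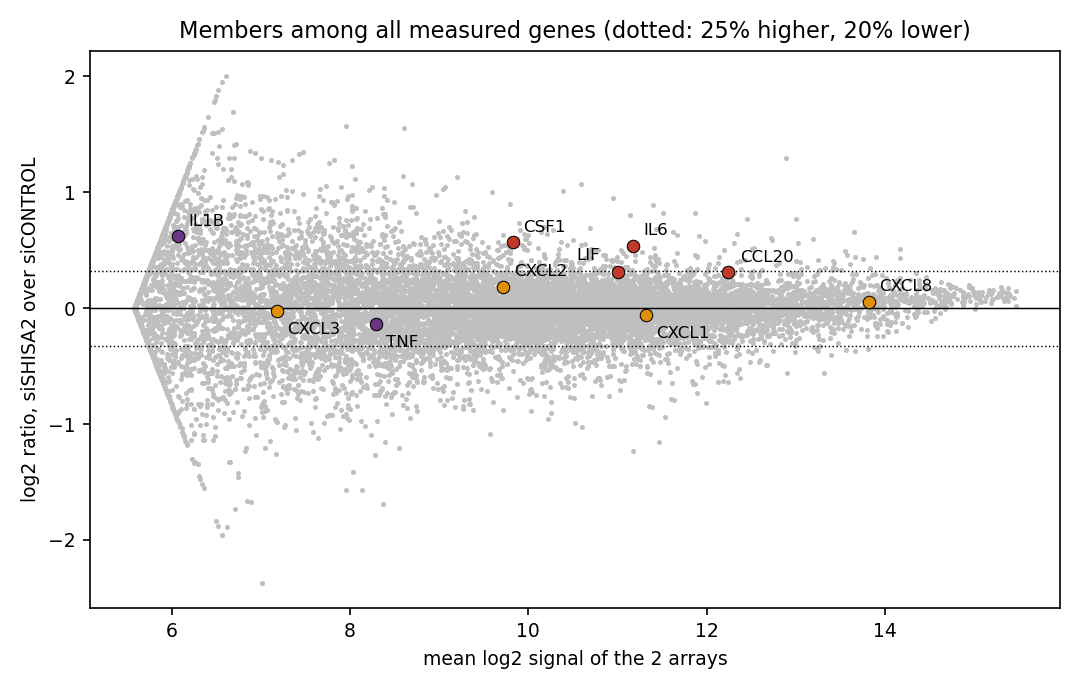
Log2 ratio of siSHISA2 over siCONTROL against the mean log2 signal of the 2 arrays, for all 12931 measured genes (grey) and the 10 members (orange, neutrophil chemokines, red, CCL20, IL6, LIF and CSF1, and purple, IL1B and TNF), with dotted lines at 25% higher and 20% lower. IL6 and CSF1 stand near the upper edge of genes of their brightness, CXCL1, CXCL3 and CXCL8 lie near 0, and IL1B lies at the dim end where ratios scatter widely.

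Related chemokines were spread on both sides of 0. CXCL5, CXCL6 and PPBP, the other neutrophil chemokines listed, were under the floor in both arrays (named after their values were seen), and PF4, a platelet chemokine of the same gene cluster, read 58.3 in siSHISA2 cells and 60.2 in siCONTROL cells (log2 ratio -0.05, likewise named after its value was seen). Of the 14 other CXC, CX3C and XC chemokines listed, 6 were measured, 3 above and 3 below 0, with a median of 0.02. CXCL11, a ligand of CXCR3, read 2230 in siSHISA2 cells and 1062 in siCONTROL cells (log2 ratio 1.07), and its other probe set had a ratio of 0.92. CXCL10, which binds the same receptor, read 1282 in siSHISA2 cells against 971 in siCONTROL cells (0.40). The membrane-anchored CX3CL1 had a ratio of 0.10 (0.44 on its other probe set), and CXCL12, the ligand of CXCR4, was at least 1.42-fold lower, with 42.0 in siSHISA2 cells, under the floor, against 67.9 in siCONTROL cells. CXCL16, the ligand of CXCR6, read 651.8 in siSHISA2 cells and 681.1 in siCONTROL cells (-0.06, named after its value was seen). Of the 16 other CC chemokines with a probe set, 3 were measured and all were above 0, with a median of 0.62. Of all measured genes, 52.2% were above 0. CCL5, which attracts T cells and monocytes, read 10724 in siSHISA2 cells and 6291 in siCONTROL cells (0.77), and was also higher on its other probe sets, at 10541 against 5771 and at 7108 against 2980. CCL22, a ligand of CCR4, read 325.4 in siSHISA2 cells against 211.7 in siCONTROL cells (0.62). CCL28 was at least 1.21-fold higher, with its siCONTROL signal under the floor, so its sign was fixed by the floor. CXCR1, CXCR2, CCR6 and the decoy receptor ACKR1, the receptors of the member chemokines, were under the floor in both arrays.

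The IL-6 family receptor genes IL6ST, LIFR, OSMR and IL6R were lower on every measured probe set, while IL6 and LIF were higher. All 5 measured receptor genes were below 0, with a median of -0.32, against 47.8% of all measured genes below 0, and 2 of them (IL6ST and LIFR) were lower by at least 20%, against 12.0% of all measured genes. OSMR lay just short of that fold. Over the 15 measured probe sets of these receptor genes, 14 were below 0, but several of them read the same gene and are not independent. IL6ST, the gp130 subunit that all these cytokines use, read 9348 in siSHISA2 cells and 12362 in siCONTROL cells on its brightest probe set (log2 ratio -0.40). All 5 measured probe sets of IL6ST were lower in siSHISA2 cells, with log2 ratios from -0.68 to -0.40.

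LIFR, the partner chain for LIF, read 274.6 in siSHISA2 cells and 458.4 in siCONTROL cells (-0.74), with -0.40 on another probe set and at least 2.46-fold lower on the dimmest measured. The oncostatin M receptor chain OSMR read 2336 in siSHISA2 cells and 2920 in siCONTROL cells (-0.32), with its probe sets from -0.43 to -0.19. IL6R, the alpha chain for IL-6, read 281.2 in siSHISA2 cells and 322.8 in siCONTROL cells (-0.20, and -0.46 on its other measured probe set). IL11RA, named after its value was seen, was the gene whose probe sets disagreed, at -0.06 and 1.12. On their brightest probe sets IL6R and IL11RA lay within the technical SD over all genes (0.286) of 0. Of the other ligands of the family 2 were measured: IL11 at 383.5 in siSHISA2 cells against 527.4 in siCONTROL cells (-0.46, with the other probe set at least 1.56-fold higher and its siCONTROL signal under the floor), and EBI3, a subunit of interleukin-27, at 172.8 in siSHISA2 cells against 204.9 in siCONTROL cells (-0.25).

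SOCS3, the feedback inhibitor that STAT3 induces, was lower in siSHISA2 cells. It read 1116 in siSHISA2 cells and 1740 in siCONTROL cells on probe set 227697_at (log2 ratio -0.64), 66.1 against 93.1 on 206360_s_at (-0.49), and was at least 2.64-fold lower on 206359_at. STAT3 itself, named after its value was seen, read 7485 in siSHISA2 cells and 8084 in siCONTROL cells (-0.11). Of the 12 measured genes of the JAK and STAT3 list, 3 were above and 9 below 0, with a median of -0.07. Of all measured genes 47.8% were below 0. On the brightest probe set 1 of the 12, SOCS3, was at least 20% lower, near the 12.0% of all measured genes. At least 25% higher were 0, against 13.1%. Other probe sets spread further, named after their values were seen. SOCS1 ranged from -0.95 to 0.73 (both bounds) and JAK1 from -0.06 to 0.72. The kinase JAK2 had a ratio of 0.30 on its brightest probe set and -0.05 on the next. The STAT3-induced kinase PIM1 had a ratio of 0.25 and the transcription factor CEBPB, which acts with NF-kB at the IL6 promoter, -0.21. Whether the levels of STAT3 protein or its phosphorylation differed was not measured.

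**Figure D3:**
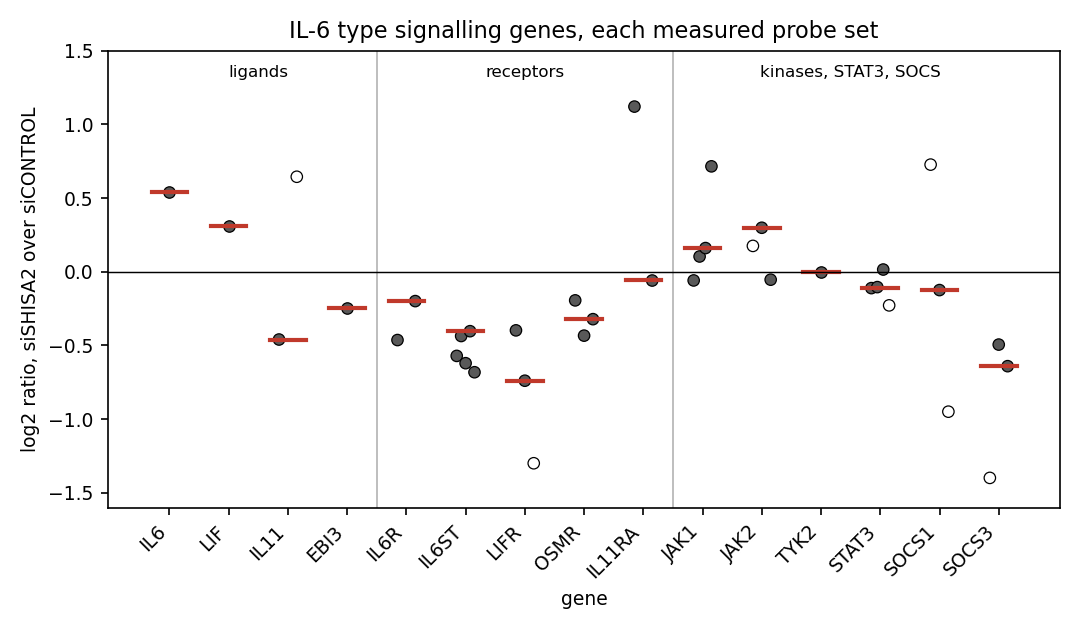
Log2 ratio of siSHISA2 over siCONTROL for each measured probe set of IL-6 type ligands, receptors and downstream genes (open points are bounds with 1 signal under the floor, and red bars mark the brightest probe set of each gene). IL6 and LIF lie above 0, and all measured probe sets of IL6R, IL6ST, LIFR, OSMR and SOCS3 lie below it.

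NF-kB genes act upstream of most members. Of 12 measured subunits, kinases and inhibitors, 9 were above 0, against 52.2% of all measured genes, with a median of 0.16, against 0.01. At least 25% higher were 2, against 13.1% of all measured genes, a share near that background, and 0 were lower by at least 20%. NFKB2, which encodes p100 and p52, read 443.9 in siSHISA2 cells and 243.9 in siCONTROL cells (0.86, but 0.12 on its other measured probe set). NFKBIA, the inhibitor that NF-kB itself induces, read 9612 in siSHISA2 cells and 7601 in siCONTROL cells (0.34). The scaffold IKBKG had a ratio of 0.28 (-0.09 on its other probe set) and the subunit RELA one of 0.26 (0.61 on its other probe set).

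Receptors and partners of IL1B, TNF and CSF1 did not share one direction. Of 9 measured genes of the IL-1 family, its receptors and adaptors, 7 were below 0, against 47.8% of all measured genes. Their median was -0.12. The signalling receptor IL1R1 read 851.9 in siSHISA2 cells and 1121 in siCONTROL cells (-0.40). On the other IL1R1 probe set the ratio was at least 0.10, with the siCONTROL signal under the floor. The decoy receptor IL1R2 had a ratio of -0.39 (0.25 on its other probe set), the accessory chain IL1RAP one of -0.24 and the interleukin-18 receptor IL18R1 one of -0.21. Of 6 measured TNF receptor and adaptor genes, 4 were above 0, against 52.2% of all measured genes, with a median of 0.13. Those above 0 included the adaptor TRAF1 at 168.1 in siSHISA2 cells against 79.7 in siCONTROL cells (1.08). On the other TRAF1 probe set the ratio was at least 0.26, with the siCONTROL signal under the floor. Also above 0 were the adaptor TRADD at 0.40 and the NF-kB inhibitor TNFAIP3 at 0.16 (0.63 on its other probe set). The main TNF receptor, TNFRSF1A, had a ratio of -0.24. The 4 measured genes of the list of colony-stimulating factors and receptors, KITLG and 3 receptors, were all dim. On their brightest probe sets they were below 0, against 47.8% of all measured genes, with a median of -0.47. CSF3R and CSF1R passed the floor only in the siCONTROL array, so their sign was fixed by the floor. KITLG, the ligand of KIT, read 155.8 in siSHISA2 cells and 209.3 in siCONTROL cells (-0.43). CSF2RA had a ratio of -0.56 on its brightest probe set, with others at least 1.30-fold lower and, at 56.5 in siSHISA2 cells against 39.0 in siCONTROL cells, higher. CSF3R was at least 1.43-fold lower, and CSF1R, the receptor of CSF1, read 36.6 in siSHISA2 cells, under the floor, and 49.3 in siCONTROL cells, barely above it.

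**Figure D4:**
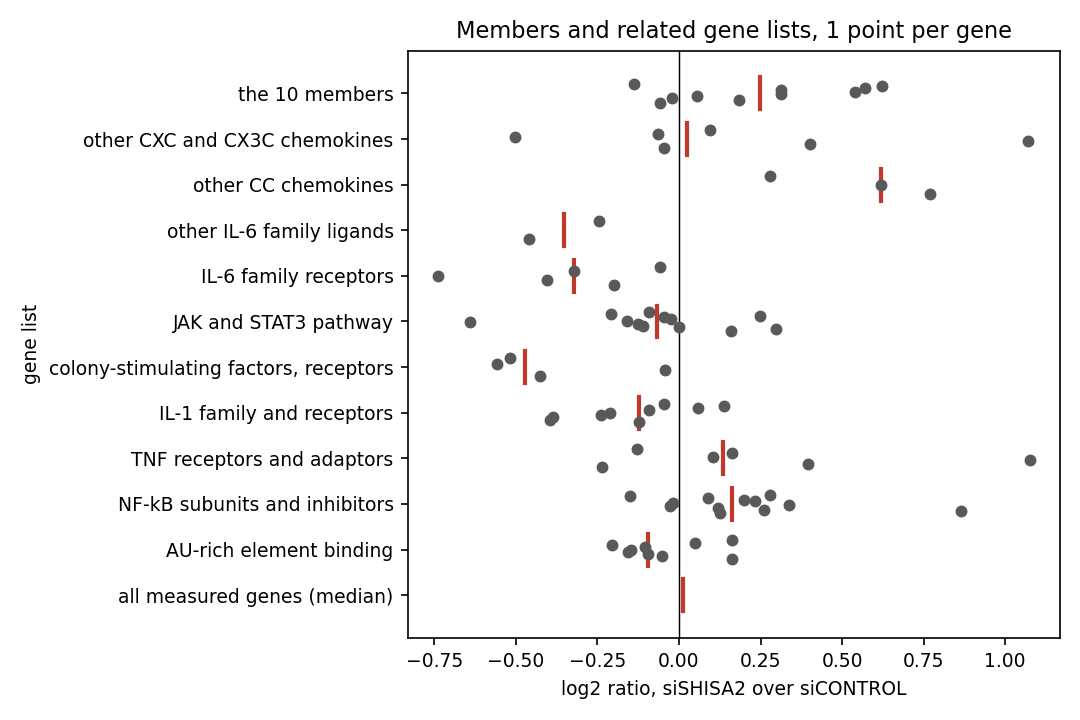
Log2 ratio of siSHISA2 over siCONTROL for each measured gene (points) and the median (red bars) of the 10 members and of related gene lists, with the median of all measured genes in the bottom row. The IL-6 family receptors lie below 0. So do KITLG, CSF1R, CSF2RA and CSF3R, the measured genes of the list of colony-stimulating factors and receptors. CSF1 is among the members and lies above 0, as do 9 of the 12 NF-kB genes.

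The targeted gene, SHISA2, read 1506 in the siSHISA2 array, 42.6% of the 3536 in the siCONTROL array. The labelled cell type was checked on listed markers. Of 5 epithelial and PC-3 markers 4 were measured, with VIM at 15025 in siSHISA2 cells and 16506 in siCONTROL cells, KRT18 at 17533 and 18340, KRT8 at 1990 and 2283, and EPCAM at 313.1 and 353.6. The remaining marker, the epithelial cadherin CDH1 (named after its values were seen), was under the floor on all its probe sets in both arrays. Since leukocytes and stroma also make these cytokines, their markers were read too. Of 11 leukocyte markers with a probe set, 5 were measured, and the list summed to 487.7 in siSHISA2 cells and 381.2 in siCONTROL cells over the brightest probe set of each gene. PTPRC, the pan-leukocyte CD45 (named after its values were seen), was under the floor on all its probe sets. The highest signals in the list were those of CD79A, at 164.6 in siSHISA2 cells and 109.1 in siCONTROL cells. CD2 was at least 1.35-fold and CD3E at least 1.20-fold higher, and ITGAM read 59.9 in siSHISA2 cells and 45.3 in siCONTROL cells, each with a siCONTROL signal under the floor. The other probe sets of CD79A and ITGAM were under the floor in both arrays. CSF1R, the remaining measured marker, went the other way, at 36.6 in siSHISA2 cells, under the floor, and 49.3 in siCONTROL cells. Of 7 fibroblast and endothelial markers 3 were measured, and that list summed to 1041 in siSHISA2 cells and 1129 in siCONTROL cells. The part of these markers in the cytokine differences was not tested.

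The direction of each member was also read under 8 other processing choices, and it was the same in every choice that measured the gene. Some of these choices could not change some of the values, and all used the same 2 arrays.

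**Figure D5:**
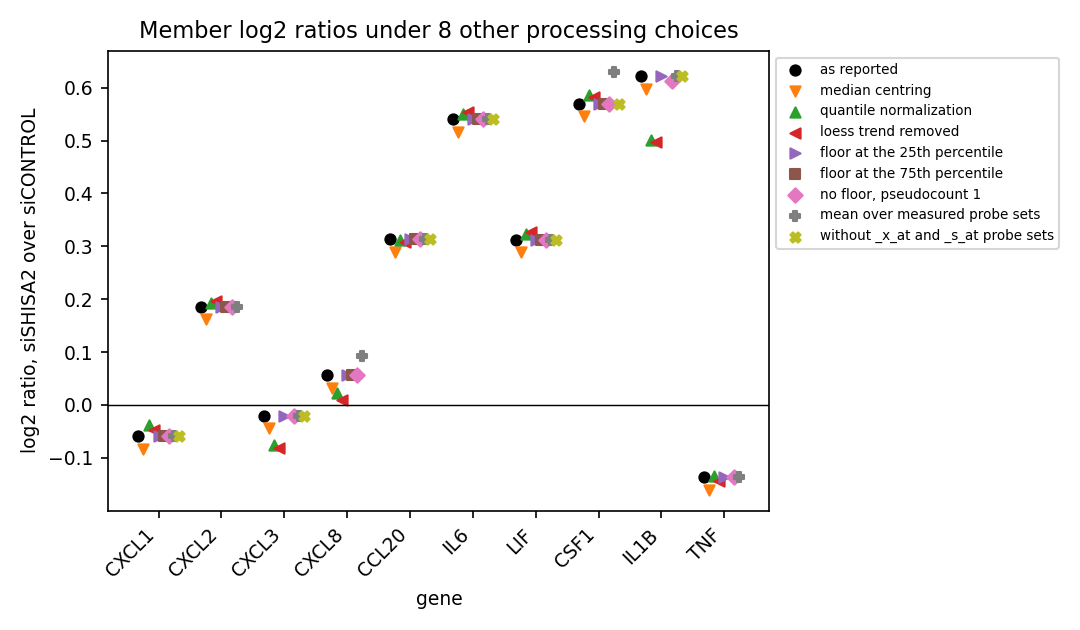
Log2 ratio of siSHISA2 over siCONTROL for each of the 10 members as reported (black) and under 8 other processing choices (coloured), where a missing point means that the gene was not measured under that choice. IL6 stays between 0.52 and 0.55 and CSF1 between 0.55 and 0.63, and no member crosses 0.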

How the data were processed

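The authors' deposited table gives 1 column of linear MAS5 signal intensities per array, per the submitters' processing notes. No version is named in the sources used here, and detection calls were not used. MAS5 weighs perfect-match against mismatch probes, so low signals are noisy. The arrays had trimmed means of 497.0 each and were not rescaled. Their medians differed, at 50.3 (siSHISA2) and 45.6 (siCONTROL), and 55.0% of dim genes had a log2 ratio above 0, against 50.2% of bright genes.

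Of the annotated probe sets 41097 had 1 symbol, and 1801 with several and 62 controls were left out. Signals under 47.9 were raised to it, and a gene is represented by its brightest measured probe set. Named genes are all members, SHISA2 and, per related list, all measured genes if at most 4, otherwise the 4 with the largest ratios in size. Members and lists were chosen with earlier results of these data known. With 1 array per group no test was possible. Biopython 1.88 aligned promoters, statsmodels 0.14.6 fitted the loess trend (span 0.3), and the procedure was tested on simulated data.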

Additional observations from a re-analysis of the deposited data

How the results depend on the processing

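All 10 members kept the sign of their log2 ratio in every one of the 8 alternatives that measured them: quantile normalization, median centring, a loess trend removed, a pseudocount of 1 in place of the floor, floors at 11.3 and 387.3, averaged probe sets, and no _x_at or _s_at probe sets. None of their 74 alternative values moved by more than the technical SD. Several of the alternatives could not change the value of a bright gene with 1 probe set. IL6, for example, stayed at 0.54 under both other floors, with averaged probe sets and without _x_at and _s_at probe sets. Median centring lowered every ratio by 0.02. All alternatives used the same 2 arrays, so the kept signs say nothing about variation between cultures or arrays. The member median ranged from 0.23 after median centring to 0.31 without _x_at and _s_at probe sets, where 7 members were measured. With the floor at 387.3, 7 members were measured too, and 2 instead of 3 were at least 25% higher, since IL1B was no longer measured. That count was 4 after quantile normalization and after loess, where LIF passed the fold. The count at least 1.5-fold higher was 0 after loess, 0 with the floor at 387.3 and 2 (CSF1 and IL1B) when probe sets were averaged, against 1 as reported. After quantile normalization it was 1 as well, but the gene was CSF1. The dim CSF1 probe set 211839_s_at went to a log2 ratio of 1.28 with the floor at 11.3. With the floor at 11.3, 22.7% of measured genes were at least 25% higher, against 13.1% as reported.

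Under the 3 other scalings the counts above and below 0 of the related lists stayed as given, except the JAK and STAT3 list, with 4 above and 8 below after quantile normalization and after loess. Averaging probe sets put IL11RA above 0 and left 4 of 5 IL-6 receptors below, and the floor at 11.3 added CNTFR and gave 5 of 6 below. Averaging also gave 0 above and 9 below in the IL-1 list, 11 above and 1 below in the NF-kB list, 4 above and 8 below in the JAK and STAT3 list, a median of -0.08 for the other IL-6 ligands, 0.22 for the TNF list and 0.11 for the other CXC list. Without _x_at and _s_at probe sets the medians were -0.20 (IL-1), 0.25 (TNF), 0.10 (other CXC) and -0.03 (JAK and STAT3). In that setting 7 NF-kB genes were measured, 4 above and 3 below 0, with a median of 0.12. Of all genes measured there, 51.4% were above 0, a share near that of the NF-kB list. The floor at 387.3 gave medians of -0.08 (IL-1) and 0.25 (other CXC), and the floor at 11.3 gave 0.10 (other CXC), with the number of measured genes changing in each. No paired analysis was possible because each group has 1 array. Low signal limits IL1B, CXCL3 and TNF, none of which was above 387.3. The log2 ratio of IL1B went from 0.62 to 0.50 after quantile normalization and after loess.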

Other observations

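AU-rich elements control the lifetime of messages such as those of IL6, CXCL8 and TNF. Messages of proteins that bind such elements or act in message decay had log2 ratios from -0.21 to 0.16 on the brightest probe sets. Of 9 measured genes, 3 were above and 6 below 0, with a median log2 ratio of -0.10. At least 25% higher or 20% lower were 0, against 13.1% of all measured genes higher and 12.0% lower. All of these genes were bright. Of the 7650 bright genes 359 (4.69%) were at least 25% higher and 535 at least 20% lower, so the count of 0 was near that background. The sign of the median turned when probe sets were averaged, to 0.00, and without probe sets that can share probes, to 0.01. The stress granule protein TIA1 had a ratio of -0.21, the message-stabilising ELAVL1 one of -0.16, the decay factor ZFP36 (tristetraprolin) one of 0.16 and the roquin gene RC3H1 one of 0.16. Other probe sets spread further. TIA1 ranged from -0.22 to 0.70 over its probe sets, ELAVL1 from -0.16 to 0.49 and RC3H1 from -0.21 to 0.16. Named after their values were seen, HNRNPD ranged from -0.85 to 0.13, KHSRP from -0.29 to 0.82 and TIAL1 from -0.49 to 0.05. ZFP36L2, likewise named, ranged from -0.43 to -0.10 and ZFP36L1 from -0.05 to 0.11. The values 0.70 of TIA1, -0.21 of RC3H1 and 0.82 of KHSRP are bounds, with a signal under the floor.

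Of the endothelial and fibroblast markers that were measured, CDH5 read 261.5 in siSHISA2 cells and 155.9 in siCONTROL cells (log2 ratio 0.75). PECAM1 had a ratio of 0.22 on its brightest probe set. On its other measured probe set the ratio was -0.56 or lower, with the siSHISA2 signal under the floor. COL1A1 read 577.0 in siSHISA2 cells and 787.2 in siCONTROL cells (-0.45, with probe sets from -0.45 to 0.92). Of the androgen-responsive genes, which this androgen-independent line is known to express weakly, KLK3 read 251.0 in siSHISA2 cells and 242.3 in siCONTROL cells (0.05). That KLK3 value came from probe set 231629_x_at, of the kind that can share probes. KLK2 was at least 1.49-fold higher on its brightest probe set, its siCONTROL signal lying under the floor. All other probe sets of KLK3 and KLK2 were under the floor in both arrays. So were all those of TMPRSS2, named after its values were seen.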
